A study of Mus musculus with 8 samples.

Results

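The heart carries a small group of genes that are high before birth or under load and low, or replaced by an adult isoform, in the resting adult ventricle. The 10 genes described here were chosen by name, with earlier results of these data known, and Actc1 and Myh6 among them are adult isoforms. They are the natriuretic peptide genes Nppa and Nppb, the actin genes Acta1, Acta2 and Actc1, and the myosin heavy chain genes Myh6 and Myh7. The others are the stretch-associated genes Ankrd1 and Fhl1 and the ubiquitin hydrolase gene Uchl1. All 10 genes are read by 17 of the 25697 probes of an Illumina bead array, on which 16593 genes are named. Hearts came from 4 Taz knockdown mice, which carried a doxycycline-inducible short hairpin RNA against Taz, the gene of the mitochondrial enzyme tafazzin that remodels cardiolipin, as a model of Barth syndrome. They were set against the hearts of 4 wild-type littermates. All 8 mice were 2 months old, on a C57BL/6J background and on a diet with 625 mg of doxycycline per kg, and each array held the RNA of 1 mouse. The wild-type mice are labelled with no hairpin of their own, so that carrying a hairpin and losing Taz cannot be told apart, and neither the promoter that drives the hairpin nor the sex of the mice is given in the sources used here.

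Atrial and brain natriuretic peptides are hormones that heart muscle releases when its wall is stretched, and they promote salt loss and vessel relaxation. The fetal heart uses skeletal and smooth muscle forms of actin beside the cardiac form, and in mice the beta form of myosin heavy chain gives way after birth to the faster alpha form. Re-expression of the peptides, of skeletal actin and of beta myosin in a loaded adult ventricle is the pattern known as the fetal gene programme. ANKRD1 sits on titin in the sarcomere and in the nucleus, FHL1 is a LIM-domain protein that takes part in stretch signalling, and UCHL1 is a ubiquitin C-terminal hydrolase best known from neurons.

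The level of Taz itself fits the labels. Its brighter probe had a mean deposited intensity of 62.7 in knockdown hearts and 543 in wild-type hearts, a normalised level 7.34-fold lower in knockdown hearts (log2 difference -2.88 ± 0.12 SE, limma adjusted p = 1.11e-07). Between 9027 and 10183 probes were detected per knockdown heart and between 8935 and 9601 per wild-type heart, where detected means a detection p-value under 0.05. The ventricular light chain genes Myl2 and Myl3 were detected in all 8 hearts. These are whole-tissue RNAs, so fewer cells of a type and less RNA per cell cannot be told apart.

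Of the 10 genes, 6 were higher in Taz knockdown hearts with every one of their probes, and none was lower. Acta1 and Uchl1 had the largest differences, 2.81-fold and 2.73-fold, followed by Acta2, Ankrd1, Nppb and Fhl1 with 1.42-fold to 2.43-fold by probe. Nppa, Actc1 and Myh6 did not pass the test, and Myh7 was too dim to be tested. A probe was tested where it was detected on at least 4 of the 8 arrays. This holds for 16 of the 17 probes, and all 16 were detected on every array. Limma adjusted p-values under 0.05, over 9397 tested probes, were found for 11 of these 16 probes, all higher, while 5 did not pass. Across all tested probes, 3.42% were called higher, 3.16% lower and 6.58% in either direction. At an unadjusted p under 0.05 the count of lower probes was also 0. The share of all tested probes at that unadjusted cutoff was not counted, so such counts, here and in the lists below, have no share beside them. For scale, the dimmer Myh6 probe, at an unadjusted limma p of 0.118, stood at rank 2911 of the 9397 by p. The same 11 probes had no overlap between groups, with all 4 knockdown hearts above all 4 wild-type hearts, an arrangement found for 6.98% of all tested probes (7.65% with knockdown lower, 14.6% in either direction). The median log2 difference was 0.65 over the 16 probes and -0.01 over all tested probes. Because the genes were chosen with earlier results of these data known, these shares and medians are a description and no test of the group.

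**Figure D1:**
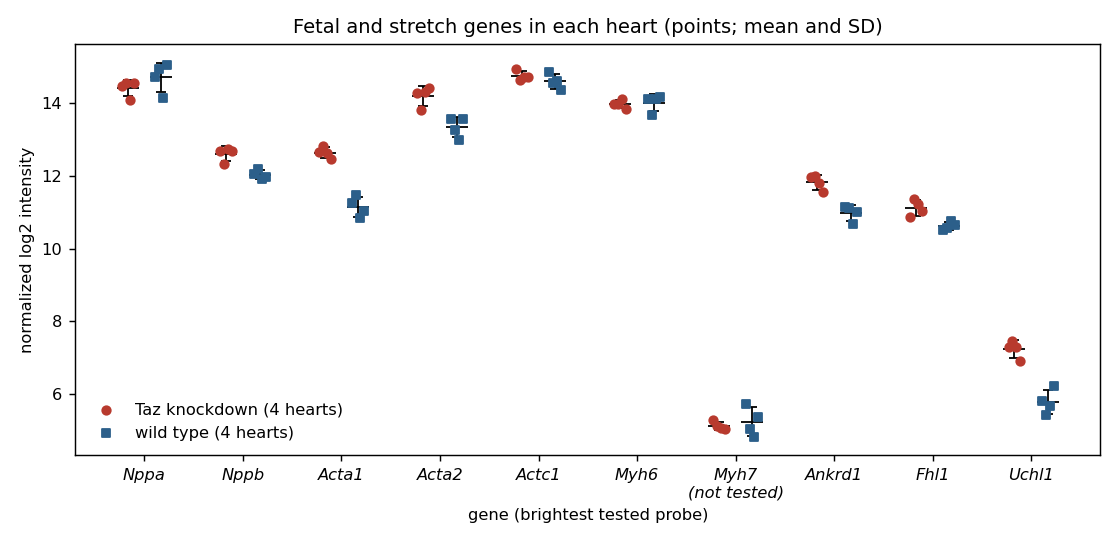
Normalised log2 intensity (vertical axis) of the brightest tested probe of each gene (horizontal axis), with Myh7 shown by its only probe, which was not tested. Points are single hearts, with 4 Taz knockdown hearts to the left of 4 wild-type hearts, and bars give the mean and SD. Acta1 lay between 12.46 and 12.82 in knockdown hearts and between 10.85 and 11.46 in wild-type hearts, and Myh7 lay near the bottom of the scale in both groups.

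**Figure D2:**
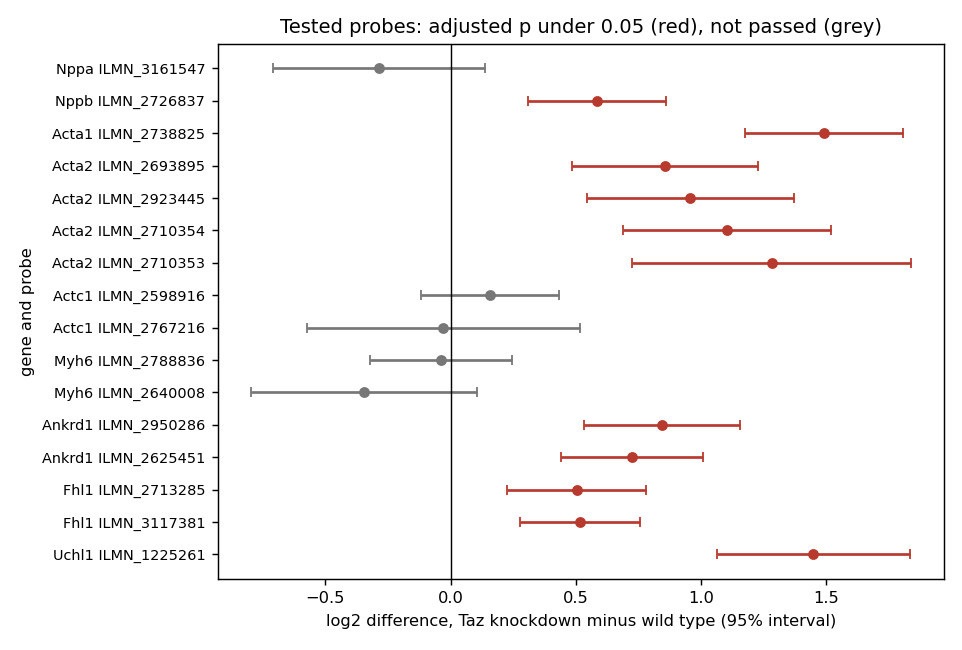
Log2 difference in normalised intensity, Taz knockdown minus wild type (horizontal axis), for each of the 16 tested probes (vertical axis), with 95% intervals from limma. Red probes passed an adjusted p of 0.05 and grey probes did not. The 4 probes of Acta2 gave between 0.85 and 1.28, and the intervals of both Actc1 probes and both Myh6 probes span 0.

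The peptide genes Nppa and Nppb are neighbours on chromosome 4. Nppb was higher in Taz knockdown hearts, while Nppa did not pass and had a negative difference; the difference between the 2 effects was not tested. Nppb, which encodes brain natriuretic peptide, had deposited intensities of 8084, 5224, 6600 and 5848 in the 4 knockdown hearts, against 4332, 5018, 3144 and 3983 in the 4 wild-type hearts. Every knockdown heart was above every wild-type heart, although the lowest knockdown heart, number 2, lay close to the highest wild-type heart, also number 2. After normalisation Nppb was 1.50-fold higher in knockdown hearts (95% interval 1.24 to 1.81; log2 difference 0.58 ± 0.12 SE, limma adjusted p = 0.0183). That call was lost when knockdown heart 1, 3 or 4 was left out (limma adjusted p = 0.0558, 0.0606 and 0.0504) and when wild-type heart 3 or 4 was (0.0515 and 0.0558), with log2 differences of 0.54 to 0.56.

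Nppa, which encodes atrial natriuretic peptide, had deposited intensities of 24607, 23097, 16422 and 21205 in knockdown hearts, against 27855, 33940, 16804 and 33009 in wild-type hearts. The groups overlapped, and heart 3 was the lowest of each group. The normalised level in knockdown hearts was 0.821 of that in wild-type hearts (95% interval 0.612 to 1.10; log2 difference -0.29 ± 0.19 SE, limma adjusted p = 0.449), and the spread was wider in wild-type hearts (log2 SD 0.23 in knockdown, 0.40 in wild type). The probe ranked between 7 and 32 by brightness on the 8 arrays, and saturation of so bright a probe was not tested.

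In adult hearts Nppa is made mainly in the atria, so its values stand here beside those of other atrial genes. Of 11 atrial markers, 7 were tested and all 7 had a negative difference, with a median log2 difference of -0.61. At an unadjusted p under 0.05, 5 of the 7 were lower and 0 higher, and in the limma fit only 1 passed after adjustment, the potassium channel gene Kcnj3 (-0.61). Kcnj3 was detected in 1 knockdown heart and 4 wild-type hearts. It reached the test only through the group where it is high, and its p-value is not read here. Kcnj3 is counted among the 5 and enters the mean of the 7 below. Myl7, the atrial regulatory light chain, was among the 5 and did not pass after adjustment (-0.71, adjusted p = 0.0526). The normalised intensity summed over all 11 markers, on the linear scale with the offset taken off, ran between 12456 and 17154 in knockdown hearts and between 16734 and 31047 in wild-type hearts, and 3 of the 11 were detected on no array. The mean log2 level of the 7 tested markers was 8.64, 8.75, 8.38 and 8.75 in knockdown hearts, against 8.96, 9.64, 8.85 and 9.43 in wild-type hearts. Those groups did not overlap, and heart 3 was again the lowest of each. Over the 6 markers detected in all 8 hearts, which leave out Kcnj3, the mean ran between 8.97 and 9.43 in knockdown hearts. In wild-type hearts it ran between 9.42 and 10.27, so that the groups just overlap. Of 7 ventricular markers 5 were tested and 0 passed in limma (1 lower at an unadjusted p under 0.05), with a median of -0.02. With the atrial mean as a covariate the log2 difference of Nppa was 0.29 (limma adjusted p = 0.551) and that of Nppb 0.62 (0.191). The atrial mean is itself apart between the groups, so that its effect and that of the knockdown cannot be told apart in this fit. The part of atrial tissue in the differences of either peptide was not tested further.

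**Figure D3:**
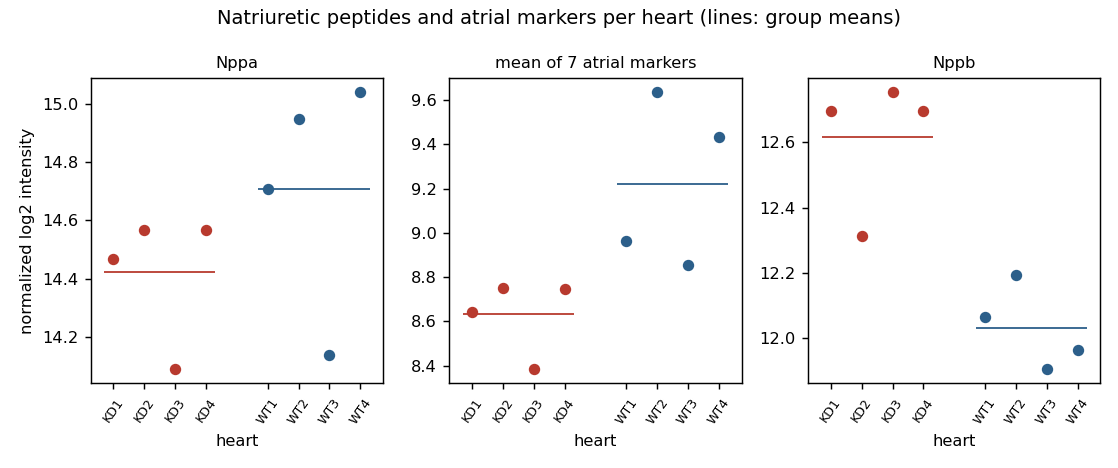
Normalised log2 intensity (vertical axis) of Nppa, of the mean of 7 atrial markers and of Nppb in each heart (horizontal axis), with Taz knockdown hearts at left, wild-type hearts at right and lines at the group means. Nppa and the atrial mean were lowest in heart 3 of each group, at 14.09 and 8.38 in the knockdown heart and 14.14 and 8.85 in the wild-type heart, while Nppb was higher in all 4 knockdown hearts.

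The promoters of both genes are shown because the peptides share a chromosomal neighbourhood and only Nppb passed the test. Each sequence holds the 250 bases before the RefSeq transcript start on the sense strand, 5′ to 3′, with positions on GRCm38.p6, and all promoter sequences given here come from RefSeq. Capitals mark GATAA or its reverse complement TTATC, letters bound by GATA factors, and CATTCC or its reverse complement GGAATG, the MCAT letters bound by TEAD factors. The Nppa promoter spans chr4:148000472-148000721 on the plus strand and the Nppb promoter chr4:147985650-147985899 on the plus strand.
Nppa: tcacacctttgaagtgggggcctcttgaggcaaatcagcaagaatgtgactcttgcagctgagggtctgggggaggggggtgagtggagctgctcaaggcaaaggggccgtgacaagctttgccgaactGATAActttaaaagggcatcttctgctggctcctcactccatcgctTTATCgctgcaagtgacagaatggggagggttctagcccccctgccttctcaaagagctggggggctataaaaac
Nppb: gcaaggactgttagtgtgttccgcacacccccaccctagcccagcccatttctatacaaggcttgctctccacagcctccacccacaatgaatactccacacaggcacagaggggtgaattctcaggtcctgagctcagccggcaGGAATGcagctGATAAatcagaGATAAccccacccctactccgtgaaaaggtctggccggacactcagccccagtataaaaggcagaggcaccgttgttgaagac
Both hold the GATA letters in 2 places, at 121 and 75 bases before the start in Nppa and at 94 and 83 bases in Nppb. Only the Nppb window of the pair holds the MCAT letters, at 105 bases before the start. Of 32851 RefSeq mouse promoters of the same length, 22.6% hold the GATA letters and 12.6% the MCAT letters.

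Genes that process or receive the peptides gave no call. Of 11 such genes on the array 6 were tested, and limma called 0 in either direction (0 at an unadjusted p under 0.05), with a median log2 difference of -0.15. The largest differences were those of Corin, whose protease cleaves the precursor of atrial natriuretic peptide (-0.27, limma adjusted p = 0.257), and of Npr2, the receptor of C-type natriuretic peptide (-0.26, adjusted p = 0.367). Npr1, the receptor of the hormones made from Nppa and Nppb, did not reach the detection needed for a test.

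Among the actins, the skeletal and smooth muscle forms were higher in Taz knockdown hearts and the cardiac form did not pass. Acta1, the skeletal form, had deposited intensities of 7780, 7837, 6033 and 4954 in knockdown hearts, against 2485, 2981, 1525 and 2090 in wild-type hearts. The lowest knockdown heart, number 4, was well above the highest wild-type heart, number 2. The normalised level was 2.81-fold higher in knockdown hearts (95% interval 2.26 to 3.50; log2 difference 1.49 ± 0.14 SE, limma adjusted p = 0.000102), and this probe stood at rank 42 of the 9397 tested by p. The call held in each of 18 alternative settings, with log2 differences of 1.39 to 1.72.

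Acta2, the smooth muscle form, was read by 4 probes, all higher. Its brightest probe had deposited intensities of 22983, 15035, 18702 and 19009 in knockdown hearts, against 12472, 10676, 7135 and 12574 in wild-type hearts, with no overlap. Its normalised level was 1.81-fold higher in knockdown hearts (95% interval 1.40 to 2.34; log2 difference 0.85 ± 0.17 SE, limma adjusted p = 0.0125). The dimmer probes gave 1.94-fold, 2.15-fold and 2.43-fold (limma adjusted p = 0.0120, 0.00552 and 0.0125). All 4 calls were lost with the atrial markers as a covariate, at log2 differences of 0.89 to 1.21 (limma adjusted p of 0.126 to 0.210). That covariate is itself apart between the groups, so the loss cannot be assigned to atrial content. The call of the probe with 1.94-fold was also lost against wild-type hearts 3 and 4 alone (1.01, limma adjusted p = 0.0624). Knockdown heart 2 was the lowest of its group and wild-type heart 3 the lowest of its group on every Acta2 probe.

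Actc1, the cardiac form that makes up most sarcomeric actin of the adult heart, had deposited intensities of 34211, 24167, 25506 and 24347 in knockdown hearts on its brighter probe, against 29593, 25826, 23260 and 22419 in wild-type hearts. Heart 1 was the highest of each group, and the other hearts overlapped. The fold was 1.11 (95% interval 0.921 to 1.35; log2 difference 0.16 ± 0.12 SE, limma adjusted p = 0.536). Its dimmer probe had 473, 237, 392 and 180 in knockdown hearts, against 461, 246, 182 and 371 in wild-type hearts, a log2 difference of -0.03 ± 0.25 SE (limma adjusted p = 0.963). Probe sequences were not used here, so hybridisation of one actin's RNA to the probe of another was not checked.

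Per heart, the mean ratio of Acta1 and of Acta2 to cardiac actin was higher in Taz knockdown, short of the threshold after adjustment in the permutation test. The absolute value of such a ratio carries the unequal response of the probes, so that only its difference between groups can be read. The log2 ratio of Acta1 to Actc1, on the brightest probe of each, was -2.30, -1.83, -2.08 and -2.25 in knockdown hearts, against -3.60, -3.10, -3.76 and -3.34 in wild-type hearts, and averaged -2.11 ± 0.21 in knockdown hearts and -3.45 ± 0.29 in wild-type hearts (SD, n = 4 each). All 4 knockdown ratios were above all wild-type ratios, by 2.52-fold on average. An exact two-sided permutation test gave p = 0.0286, the smallest that 4 hearts against 4 can give, and 0.0761 after Benjamini-Hochberg adjustment over the 4 ratios examined. Acta2 relative to Actc1 had log2 ratios of -0.67, -0.84, -0.39 and -0.30 in knockdown hearts, against -1.28, -1.31, -1.61 and -0.79 in wild-type hearts. Knockdown heart 2 fell below wild-type heart 4, and the mean ratio was 1.62-fold higher in knockdown hearts (exact permutation p = 0.0571, adjusted 0.0761). That overlap depends on the normalisation. The ratios of deposited intensities were 0.672, 0.622, 0.733 and 0.781 in knockdown hearts, against 0.421, 0.413, 0.307 and 0.561 in wild-type hearts, with no overlap. With 75th percentile scaling or averaged probes the exact permutation p was 0.0286 (adjusted 0.0571). Acta1 relative to Acta2 was 1.56-fold higher, with log2 ratios of -1.63, -0.98, -1.69 and -1.95 in knockdown hearts, against -2.32, -1.79, -2.14 and -2.55 in wild-type hearts (exact permutation p = 0.0571, adjusted 0.0761). Only knockdown heart 4 lay below a wild-type heart, number 2, in that ratio. A limma fit of the 3 actin ratios, added after the data were seen and using the spread of all tested probes, gave adjusted p-values of 1.51e-05, 0.00485 and 0.0152 in the order of these ratios.

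**Figure D4:**
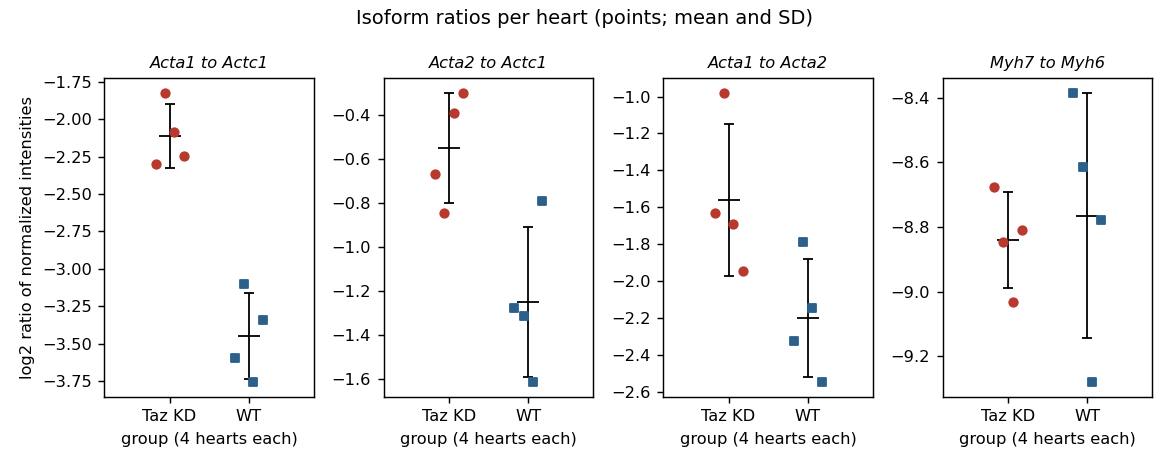
Log2 ratio of normalised intensities (vertical axis, with its own range in each panel) for 3 pairs of actin genes and for Myh7 over Myh6. Points are single hearts, with 4 Taz knockdown hearts to the left of 4 wild-type hearts, and bars give the mean and SD. The groups are apart for Acta1 to Actc1, with means of -2.11 in knockdown and -3.45 in wild type, and overlap in the other panels.

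The actin promoters are shown because the CArG box, the site of serum response factor, and the MCAT letters are known elements of muscle actin genes. Capitals mark these and the GATA letters. The windows are chr8:123894776-123895025 for Acta1, chr19:34255374-34255623 for Acta2 and chr2:114052876-114053125 for Actc1, all on the minus strand of GRCm38.p6.
Acta1: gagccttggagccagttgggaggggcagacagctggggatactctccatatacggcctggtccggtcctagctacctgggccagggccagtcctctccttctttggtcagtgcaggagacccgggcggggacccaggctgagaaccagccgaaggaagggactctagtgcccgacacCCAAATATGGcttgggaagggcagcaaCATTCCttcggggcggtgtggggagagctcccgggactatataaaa
Acta2: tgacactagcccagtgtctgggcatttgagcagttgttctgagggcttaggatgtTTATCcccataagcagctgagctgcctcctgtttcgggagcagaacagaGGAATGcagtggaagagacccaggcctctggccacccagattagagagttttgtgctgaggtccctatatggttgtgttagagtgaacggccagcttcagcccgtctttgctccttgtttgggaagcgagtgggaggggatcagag
Actc1: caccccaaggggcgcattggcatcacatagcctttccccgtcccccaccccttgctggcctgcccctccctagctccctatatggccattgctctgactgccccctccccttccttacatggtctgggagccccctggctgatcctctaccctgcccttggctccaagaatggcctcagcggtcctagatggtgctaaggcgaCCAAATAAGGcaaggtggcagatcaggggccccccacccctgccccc
Acta1 holds the CArG box CCAAATATGG at 73 bases and the MCAT letters at 46 bases before its start. The CArG box of Actc1, CCAAATAAGG, begins at 47 bases, and its window has no MCAT letters. Acta2 has the MCAT letters at 146 bases and no complete CArG box in this window. Only the exact form of that box was sought, CC and GG around 6 letters A or T. Near matches are not marked, such as ccctatatgg in the Acta2 and Actc1 windows and ccttgtttgg in that of Acta2. Whether serum response factor binds them was not tested. A CArG box is found in 1.47% of the 32851 promoters, and both elements together in 0.186%. Among all 10 genes, 3 hold a CArG box (Fhl1 is the other), 6 the MCAT letters and 4 the GATA letters, whether or not the gene passed the test. The MCAT letters are also in the window of Myh6, which did not pass, and in a window of Myh7, which was not tested. No window of Fhl1 or Uchl1, which were called higher, holds them. These are matches of letters and not measured binding.

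Because Acta2 is also high in vascular smooth muscle and myofibroblasts, and Acta1 in skeletal muscle, markers of those cells were read beside them. Of 9 smooth muscle markers 6 were tested, all 6 with a negative difference (median -0.29). In the limma fit Smtn, which encodes smoothelin, was lower on 1 of its 3 probes (-0.50, adjusted p = 0.0188), and the other 5 genes did not pass. At an unadjusted p under 0.05, 3 of the 6 were lower and 0 higher. Tagln, which encodes transgelin, was among the 3 (-0.42, limma adjusted p = 0.120), while the smooth muscle myosin gene Myh11 was not (-0.33, adjusted p = 0.306). Synpo2 was another of the 3 (-0.22, limma adjusted p = 0.232). It was detected in 2 knockdown and 4 wild-type hearts, so it reached the test through the wild-type group. The sum over all 9 markers, taken as for the atrial list, ran between 2948 and 3288 in knockdown hearts. In wild-type hearts it ran between 3684 and 4310, and Cnn1 was detected on no array. The called Smtn probe weighed most in that sum, at a mean log2 level of 10.92 in knockdown and 11.42 in wild-type hearts. Rgs5, the next brightest, had 9.43 and 9.46. The mean log2 level of the 6 tested markers ran between 7.67 and 7.77 in knockdown and between 7.87 and 8.22 in wild type. Over the 4 detected on every array the mean log2 levels of the groups overlapped (8.89 to 9.11 in knockdown, 9.09 to 9.46 in wild type). The sums over those 4, with the called Smtn probe again the brightest, did not overlap (2868 to 3201 in knockdown, 3603 to 4152 in wild type). Of 11 fibroblast and myofibroblast markers 5 were tested and limma called 0 (1 lower at an unadjusted p under 0.05). The sum over all 11 ran between 3160 and 3966 in knockdown hearts and between 3457 and 4265 in wild-type hearts, with Postn, Fap and Cthrc1 detected on no array. Of 11 skeletal muscle markers on the array 2 reached a test, limma called 0 (0 at an unadjusted p under 0.05), and Myh1, Myh4, Tnnt3, Tnnc2 and Ryr1 were detected on no array. The sum over all 11, most of them undetected, ran between 118 and 170 in knockdown hearts and between 142 and 188 in wild-type hearts.

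**Figure D5:**
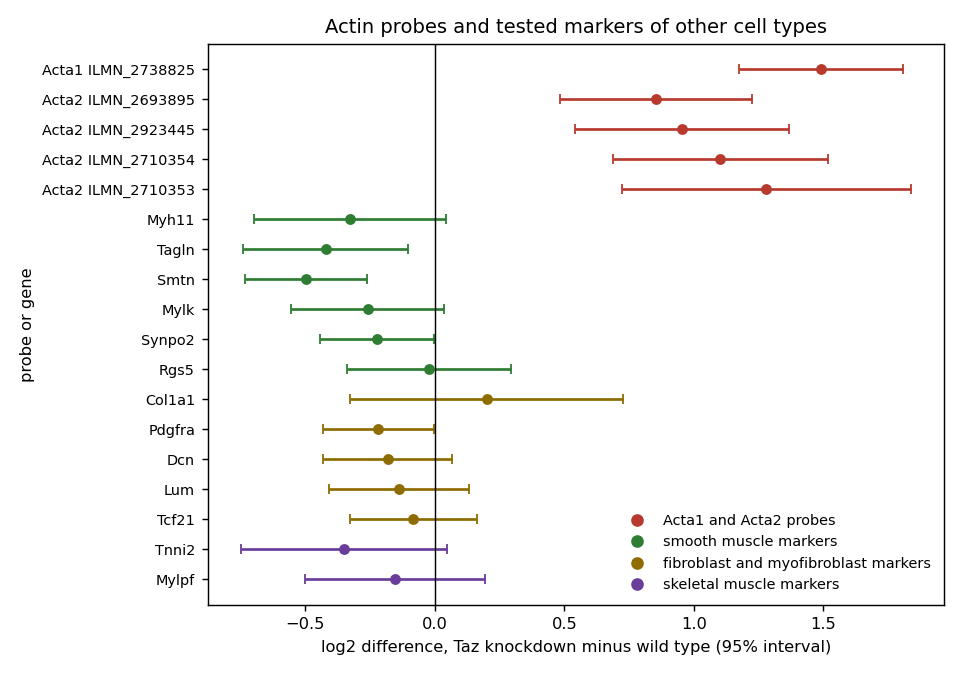
Log2 difference in normalised intensity, Taz knockdown minus wild type (horizontal axis), with 95% intervals, for the probes of Acta1 and Acta2 and for each tested marker of smooth muscle, fibroblasts and skeletal muscle (vertical axis). The actin probes lie between 0.85 and 1.49, and all 6 smooth muscle markers have negative differences, with a median of -0.29.

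No probe of the myosin heavy chains passed the test. Myh6, the alpha form, had deposited intensities of 18714, 16645, 16466 and 14003 in knockdown hearts on its brighter probe, against 18028, 13520, 16412 and 17784 in wild-type hearts. The groups overlapped throughout, and the ratio of their normalised levels was 0.973 (95% interval 0.799 to 1.19; log2 difference -0.04 ± 0.13 SE, limma adjusted p = 0.902). The dimmer Myh6 probe had 116, 96.5, 127 and 43.8 in knockdown hearts, against 147, 98.5, 86.1 and 134 in wild-type hearts (log2 difference -0.35 ± 0.20 SE, limma adjusted p = 0.381).

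Myh7, the beta form and the neighbour of Myh6 on chromosome 14, was near background in both groups. Its only probe had 27.3, 18.1, 15.7 and 14.1 in knockdown hearts, against 40.7, 16.8, 7.86 and 26.6 in wild-type hearts. Its detection reached 1 knockdown heart of 4 and 2 wild-type hearts of 4, which is 1 array short of the number needed for a test, and knockdown heart 3 missed with a detection p of 0.0501. With no filter on dim probes the log2 difference was -0.11 (limma adjusted p = 0.897). The log2 ratio of Myh7 to Myh6 was -8.68, -8.84, -9.03 and -8.81 in knockdown hearts, against -8.39, -8.61, -9.28 and -8.78 in wild-type hearts, and the groups overlapped (exact permutation p = 0.714, the same after adjustment). Since Myh7 was undetected in most hearts this ratio carries background, and a moderate difference in Myh7 was not detectable at this signal.

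On a list of other fetal, adult and skeletal isoforms of the sarcomere, no gene was called higher. The list also takes in Atp2a2, Actb, Actg1 and Actg2, which are not sarcomere isoforms. Of 18 on the array 15 were tested, and limma called 0 higher and 2 lower, with 6 lower and 0 higher at an unadjusted p under 0.05 and a median log2 difference of -0.20. Myl4 and Myl7, among those 6, were also counted with the atrial markers. The lower genes were Tnnt1, the slow skeletal troponin T (-0.89 ± 0.13 SE, limma adjusted p = 0.00183), and Mybpc2, the fast skeletal myosin-binding protein C (-0.68 ± 0.12 SE, limma adjusted p = 0.00846, detected in 3 of 4 knockdown and 4 of 4 wild-type hearts).

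The stretch-associated genes were higher in Taz knockdown hearts on both probes of each. Ankrd1, the titin-associated repressor that rises in loaded heart muscle, had deposited intensities of 4704, 4322, 3441 and 2554 in knockdown hearts on its brighter probe, against 2323, 2342, 1341 and 2061 in wild-type hearts. Knockdown heart 4 was the lowest of its group and still above every wild-type heart. The normalised level was 1.80-fold higher in knockdown hearts (95% interval 1.45 to 2.23; log2 difference 0.84 ± 0.14 SE, limma adjusted p = 0.00502). The dimmer probe gave 1.65-fold (95% interval 1.36 to 2.01, limma adjusted p = 0.00745), and neither call was lost when any single heart was left out. With the atrial markers as a covariate, whose groups are themselves apart, the call of the brighter probe was lost (log2 difference 0.99, limma adjusted p = 0.0658). That of the dimmer probe held (0.99, limma adjusted p = 0.0259).

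The Ankrd1 promoter is shown because it holds the MCAT letters in 2 places, at 210 and 123 bases before its start, beside the GATA letters at 47 bases. It spans chr19:36119845-36120094 on the minus strand of GRCm38.p6, with the same letters in capitals as above.
Ankrd1: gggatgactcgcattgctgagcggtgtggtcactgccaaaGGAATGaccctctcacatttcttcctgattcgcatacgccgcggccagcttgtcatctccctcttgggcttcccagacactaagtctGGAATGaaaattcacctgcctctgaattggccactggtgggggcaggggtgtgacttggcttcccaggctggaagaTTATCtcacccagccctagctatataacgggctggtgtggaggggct

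Fhl1, an X-linked gene, had deposited intensities of 2207, 2758, 2294 and 1798 in knockdown hearts on its brighter probe, against 1501, 1617, 1420 and 1606 in wild-type hearts. The wild-type hearts were close together, and all knockdown hearts were above them. The normalised level was 1.42-fold higher in knockdown hearts (95% interval 1.17 to 1.72; log2 difference 0.50 ± 0.13 SE, limma adjusted p = 0.0387). The other probe had 2364, 2568, 1947 and 1648 in knockdown hearts, against 1416, 1546, 1219 and 1543 in wild-type hearts, and was 1.43-fold higher (95% interval 1.21 to 1.69, limma adjusted p = 0.0169). The call of the brighter probe was lost in 11 of 18 alternative settings and that of the other in 3 of 17, with the same direction in all of them. Among single hearts left out, knockdown heart 2, 3 or 4 ended the call of the brighter probe (limma adjusted p = 0.102, 0.103 and 0.0616), as did wild-type heart 1, 2 or 4 (0.0805, 0.0875 and 0.0855).

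No partner of these proteins was called higher. Of 18 genes of stretch sensing on the array 14 were tested, and limma called 0 higher and 1 lower, with 3 lower and 0 higher at an unadjusted p under 0.05 and a median log2 difference of -0.19. The lower gene was Myot, which encodes the Z-disc protein myotilin (-0.70 ± 0.18 SE, limma adjusted p = 0.0407, detected in 3 of 4 knockdown and 4 of 4 wild-type hearts). Of 31 listed regulators of fetal or load-responsive genes, most of them transcription factors and cofactors, 14 were tested. Limma called 0 of them (0 at an unadjusted p under 0.05), with a median of -0.07. Klf4 had the largest value among them (0.33, limma adjusted p = 0.394), then Nfatc3 (0.27, adjusted p = 0.484).

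Uchl1 was the dimmest of the genes that passed. It had deposited intensities of 175, 163, 139 and 85.5 in knockdown hearts, against 44.1, 29.3, 29.0 and 60.8 in wild-type hearts, averaging 141 ± 39.8 in knockdown and 40.8 ± 15.1 in wild type (SD, n = 4 each). Knockdown heart 4 came nearest to the wild-type hearts, and the groups did not overlap. The normalised level was 2.73-fold higher in knockdown hearts (95% interval 2.09 to 3.56; log2 difference 1.45 ± 0.18 SE, limma adjusted p = 0.000564), a fold drawn toward 1 by the offset added to dim probes. The probe was detected in all 8 hearts, and the call held in each of 18 alternative settings, with log2 differences of 1.05 to 1.60.

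Uchl1 is abundant in neurons and endocrine cells, and no marker of those cells was called higher. Of 13 such markers on the array 3 were tested, and limma called 0 higher (0 at an unadjusted p under 0.05). One of them, Dbh, which encodes the noradrenaline-making enzyme of sympathetic nerves, was detected in 0 knockdown and 4 wild-type hearts; it reached the test only through the group where it is high, and its p-value is not read here. The others, detected in all 8 hearts, were Ddc, an enzyme gene of monoamine synthesis (-0.22, limma adjusted p = 0.415), and Stmn2, a neuronal stathmin (-0.08, adjusted p = 0.840). The sum of Ddc and Stmn2 ran between 60.0 and 96.1 in knockdown hearts and between 82.2 and 103 in wild-type hearts, and that over all 13 markers, Dbh and undetected ones included, between 189 and 216 in knockdown hearts and between 246 and 281 in wild-type hearts. Of the 13, 8 markers, Th, Tubb3, Prph, Gap43, Snap25, Chga, Chgb and Scg2, were detected on no array. Of its own enzyme family and ubiquitin genes, 3 of 4 on the array were tested and limma called 0 (1 higher and 0 lower at an unadjusted p under 0.05). That gene was Uchl3, of the same hydrolase family (0.76 ± 0.21 SE, limma adjusted p = 0.0543), followed by the nuclear hydrolase gene Bap1 (0.25, adjusted p = 0.500).

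Across the genes, the hearts did not keep one order. Over the 9 genes with a tested probe, on the brightest probe of each, knockdown heart 2 had the highest normalised level of its group for 4 (and shared it with heart 4 for Nppa) and the lowest for 3, and knockdown heart 4 was the lowest for 4. Wild-type heart 3 was the lowest wild-type heart for 5 of the 9. The tested probes most like each of 4 genes were also sought, by Pearson correlation of deviations from the group means over the 8 hearts, as a description of probes that share these arrays. Nppa was most like Nupr1 (0.975), Csad (0.966) and Rnasek (0.958), and Nppb was most like Fbxw4 (0.960), Map2k3 (0.955) and Fam167b (0.952). Acta1 was most like Xpc (0.972), Flywch2 (0.968) and Cln8 (0.961), and Ankrd1 was most like Zranb1 (0.976), Deptor (0.972) and Abca15 (0.970). Of these 12 genes, limma called Nupr1 (log2 difference 1.79, adjusted p = 0.000199) and Deptor (0.86, adjusted p = 0.0473) higher in knockdown hearts, and 10 did not pass. Across all tested probes 3.42% were called higher. These genes were picked as the closest among 9397 tested probes over only 8 hearts, so high correlations can arise by chance, which was not tested.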

How the data were processed

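Total RNA of 8 mouse hearts was labelled with biotin and read on Illumina bead arrays, as the labels' protocols state. Per the file headers, the deposited table gives background-subtracted intensity on a linear scale and a detection p-value for each probe and array, without normalisation. How the authors subtracted background is not stated. A second deposited table held the same intensities after quantile normalisation, judged from its values, and served as an alternative.

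The intensities were background-corrected by normexp from the detection p-values, given an offset of 16, quantile-normalised and put on the log2 scale (neqc, limma 3.58.1, R 4.3.3). This offset shrinks the folds of dim probes. Where the detection p was under 0.05 on 4 or more of the 8 arrays, a probe was tested with lmFit and eBayes, two-sided, with Benjamini-Hochberg adjustment over all 9397 tested probes and a threshold of 0.05. The step was tested on simulated data. For each gene the tested probe with the highest mean stood for it in ratios and lists. The number of arrays limits the precision, and the spread is that between mice.

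The descriptions in the labels gave each group and replicate number. Between hearts of the same number, deviations from their group means had correlations of 0.165, 0.005, -0.093 and -0.005, so the numbers were taken as names only. Genes were named from the platform's annotation, with 23962 of 23978 single-gene probes updated through the RefSeq gene table. Promoters were matched by symbol for all 10 genes (12 promoters). The 10 genes and all lists were chosen with earlier results of these data known. Named genes are all 10 with every probe, Taz, up to 4 called genes of each related or marker list (otherwise up to 2 with the largest difference), Npr1 and markers detected on no array, and the 3 probes most like each of 4 genes. Myl2, Myl3, Myl4, Myl7, Myh11, Tagln, Synpo2, Atp2a2, Actb, Actg1, Actg2, Ddc and Stmn2 were named after their values were seen. Alternatives were other normalisations, filters and priors, the replicate number as a block, each heart left out, 2 wild-type hearts alone, atrial markers as a covariate and averaged probes.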

Additional observations from a re-analysis of the deposited data

Results flagged for a closer look

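In 42 groups of 4 hearts, the gap of the highest or lowest heart to its neighbour was set against the whole range of its group, and 2 groups passed Dixon's 95% critical value for a group of that size. Chance flags about 1 in 20 groups. Knockdown heart 2 lay far below the other knockdown hearts for Nppb, at a log2 intensity of 12.31, with a gap of 0.870 of the range. Wild-type heart 2 lay far below the other wild-type hearts on the brighter Myh6 probe, at 13.67, with a gap of 0.909 of the range.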

How the results depend on the processing

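The number of probes called among the 16 tested was 9 to 10 with any heart left out, 6 genes with the probes of a gene averaged, 3 with the atrial markers as a covariate and 8 to 11 in the other settings, and none was called lower in any setting. The probes that passed with that covariate, whose group means are themselves apart, were those of Acta1, Uchl1 and the dimmer probe of Ankrd1. Over all probes, 618 were called (321 higher, 297 lower). The count was 388 to 525 with a heart left out (197 to 264 higher, 188 to 261 lower), 374 with wild-type hearts 3 and 4 alone (209 higher, 165 lower), 133 with the atrial covariate (86 higher, 47 lower) and 943 with an intensity trend in eBayes (471 lower), while an offset of 50 gave 451 lower. With the replicate block it was 399 (184 lower); 8 of the 16 member probes passed, Nppb (limma adjusted p = 0.0665) and both Fhl1 probes (0.0605 and 0.0513) being lost, and the log2 difference of the Acta1 to Actc1 ratio was 1.34. With the atrial covariate, the 3 actin ratios had log2 differences of 1.72, 0.89 and 0.83 (permutation of group labels, adjusted p = 0.0381 each). The atrial mean was held fixed in that permutation and differs between the groups, so these p-values are not exact. In the limma fit of the ratios all 3 passed, at 1.34, 0.70 and 0.64. Signs turned only in results that never passed. Nppa was 0.29 with the atrial covariate. The dimmer Actc1 probe ran from -0.16 to 0.14 with a heart left out and was 0.041 against wild-type hearts 3 and 4, and the brighter Myh6 probe ran from -0.15 to 0.012. The Myh7 to Myh6 ratio ran from -0.26 to 0.046 with a heart left out, and was 0.18 against wild-type hearts 3 and 4, 0.16 with the atrial covariate and 0.079 with averaged probes. The causes were not tested. Low signal limits what can be said of Myh7, and 4 hearts a group limit differences such as that of Fhl1.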
